A study of Drosophila melanogaster with 4 samples.

Results

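Histone H3 trimethylated at lysine 4 (H3K4me3) was mapped in the fruit fly Drosophila melanogaster, and the stretches described here are those over 100 kb in which no H3K4me3 region was listed. They were chosen from the measured regions. In the combined list of both ChIP libraries, the regions on arms 2L, 2R, 3L, 3R and X were sorted by start, and a stretch was kept where the next start minus the previous end minus 1 exceeded 100000 bp. This gave 234 of the 4309 stretches between consecutive regions, or 5.43%. The same rule gave 246 of 4208 stretches (5.85%) in the list of replicate 1 and 245 of 4118 (5.95%) in that of replicate 2.

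The animals were third-instar larvae of the wild-type strain Oregon-R, and chromatin of whole larvae, fixed and sonicated, was precipitated with a rabbit polyclonal antibody against H3K4me3 (lot 2). The labels give 2 ChIP libraries and 2 input libraries, each numbered replicate 1 and 2. The ChIP libraries each have a list of regions and there is 1 list for both, while the input libraries were not analysed here. The labels do not say whether the replicates are separate cultures, so the spread between them may be technical.

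H3K4me3 is placed on nucleosomes at the promoters of transcribed genes by the Set1 and Trithorax-group methyltransferases, and fly genes that are silent mostly lack it. In flies, silent genes often lie in long domains, some held by Polycomb proteins with methylation of H3 at lysine 27 and some without any of the common active marks. Around centromeres the chromatin is largely heterochromatin, rich in repeats and in methylation of H3 at lysine 9.

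Each list holds positions on FlyBase release 5 and a deposited score with no stated scale. Read counts are not part of the lists, so the depth behind each is unknown, and a stretch is empty only in the sense that no region was listed in it. In whole larvae, fewer cells carrying the mark and less of the mark per cell cannot be told apart. How much of each stretch could receive mapped reads was not tested. The gene table at hand is on release 6, so no gene was assigned to a stretch and the larval stage was not checked against genes. The members, their lengths and the regions beside them all come from the lists that chose them, so they are given as a description with no test. Values are those of the combined list unless a replicate list is named.

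The combined list names 20 of its 4451 regions as regions of depletion, and all 20 have a score below 0. The list of replicate 1 names 0 such regions and that of replicate 2 names 2. They count as regions under the rule that chose the stretches. Of the 20 in the combined list, 4 border a stretch, as do 444 of all 4314 regions on the 5 arms, and nothing is read from so few. Without the regions named as depletion the rule gave 235 stretches.

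The 234 stretches together held 37.8 Mb, or 31.8% of the 119 Mb of the 5 arms. In the replicate lists the stretches held 34.3% ± 0.218 of the arms (SD, n = 2), with 34.1% in replicate 1 and 34.4% in replicate 2. By comparison, the regions themselves covered 13.3% of the arms in the combined list and 12.6% ± 0.0409 in the replicate lists (SD, n = 2). The stretches were 5.43% of all stretches by number and 36.7% of all sequence between regions by length.

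Lengths in the combined list ran from 100.4 to 478 kb with a median of 142 kb, and the middle 50% were between 121 and 185 kb. The median was 149 ± 0.179 kb in the replicate lists (SD, n = 2). Over all 4309 stretches of any length the median was 8.64 kb, and 2303 of them were no longer than 10 kb. Of the 234, 100 exceeded 150 kb, 47 exceeded 200 kb, 10 exceeded 300 kb and 3 exceeded 400 kb. The 47 over 200 kb held 32.5% of the summed length. The replicate lists had 54 and 59 stretches over 200 kb, 12 each over 300 kb and 4 each over 400 kb, so each replicate list had more of the long ones than the combined list.

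**Figure D1:**
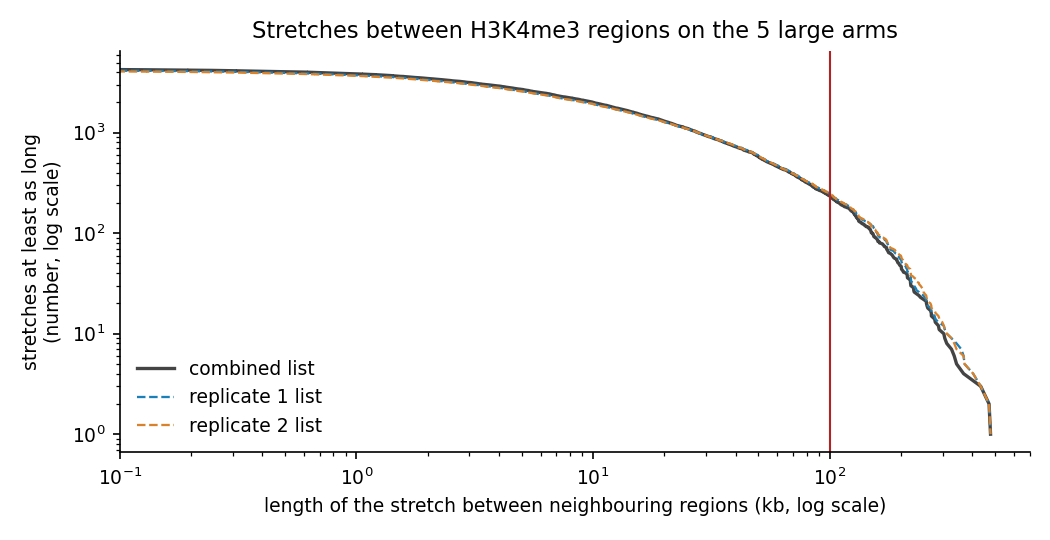
Number of stretches between neighbouring H3K4me3 regions (y axis, log scale) that are at least as long as the length on the x axis (kb, log scale), on arms 2L, 2R, 3L, 3R and X, for the combined list and each replicate list. The vertical line marks 100 kb, beyond which 234 stretches lie in the combined list, 246 in replicate 1 and 245 in replicate 2; the lines run without a step at that length.

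Lengths showed no break at the threshold. The 3 shortest members were on 3L from 2879671 to 2980087 (100417 bp), on X from 15241055 to 15342009 (100955 bp) and on X from 4322423 to 4423633 (101211 bp). The 3 stretches just under the threshold were on 2L from 22020953 to 22120871 (99919 bp), on 3R from 15732745 to 15832589 (99845 bp) and on 2R from 20301003 to 20400813 (99811 bp). The first of these measured 100062 bp in the list of replicate 1 and 99977 bp in that of replicate 2, so it passed the threshold in 1 list of 3. A further 342 stretches of the combined list were between 50 and 100 kb long and held 19.9% of the arms.

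The longest stretch lay on 2L from 15772047 to 16250003 and was 478 kb long in the combined list and in each replicate list. The ends differed between the lists by at most 27 bp. It lay 6762 kb from the centromere end of the arm. The second, also on 2L, ran from 16911345 to 17382553 and was 471 kb long in all 3 lists. The third ran on 3L from 18179429 to 18613725 and was 434 kb long in all 3 lists. The middles of these 3 stretches lay 30.4%, 25.5% and 25.05% of the way from the centromere end to the telomere end of their arms.

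Of the next 7, X held 3, 2L held 2, and 3R and 3L held 1 each. The stretch of X from 20530027 to 20897859 was 368 kb long, and that of X from 21502087 to 21845573 was 343 kb long; these lay 1525 and 577 kb from the centromere end of X. The stretch of 3R from 23814757 to 24150517 was the longest of that arm, at 336 kb in the combined list. Replicate 1 gave 360 kb there and replicate 2 gave 336 kb, since the region that ends the stretch on its left, with a combined score of 0.0021, had no counterpart in replicate 1. The stretches of 2L from 13905417 to 14232487 and from 14689925 to 14996213 were 327 and 306 kb long. The stretch of X from 14161513 to 14473699 was 312 kb long. The last of the 10 ran on 3L from 24226181 to 24529513, was 303 kb long in all 3 lists and ended 14.0 kb from the centromere end of the arm. Arm 2R had no stretch among the 10 longest. Its longest, from 15718949 to 15998241, was 279 kb in the combined list, 280 kb in replicate 1 and 280 kb in replicate 2.

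The arms differed in how much of them the stretches took up. The share was 37.0% of 2L, 24.7% of 2R, 29.7% of 3L, 32.6% of 3R and 34.3% of X in the combined list. In the replicate lists 2L was at 39.2% ± 0.139, X at 36.7% ± 1.33, 3R at 35.1% ± 0.533, 3L at 32.9% ± 0.268 and 2R at 26.8% ± 0.422 (SD, n = 2 each). The order from 2L down to 2R was the same in each of the 3 lists. X was at 35.7% and 37.6% and 3R at 34.8% and 35.5% in replicates 1 and 2, so their values lay close to each other for the spread on X.

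By number, 2L had 49 stretches, 2R 35, 3L 44, 3R 60 and X 46. Per Mb, 3R had 2.15 stretches, 2L 2.13, X 2.05, 3L 1.79 and 2R 1.66. The highest value was on another arm in each replicate list, with 2.26 on 2L in replicate 1 and 2.23 on X in replicate 2, against 2.15 on 3R in each. On 3R 6 stretches exceeded 200 kb, whereas X had 13, 3L 11, 2L 10 and 2R 7 of that length. The median length in the combined list was 152 kb for 2L, 148 kb for X, 141 kb for 3L, 136 kb for 3R and 132 kb for 2R. This order did not hold in the replicate lists, where 2L had 151 and 153 kb. On 3R the median was 153 kb in replicate 1 and 155 kb in replicate 2, above the combined value by far more than the difference between the replicates, and on 3L it was 154 and 149 kb. 2R had the shortest median in each of the 3 lists.

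**Figure D2:**
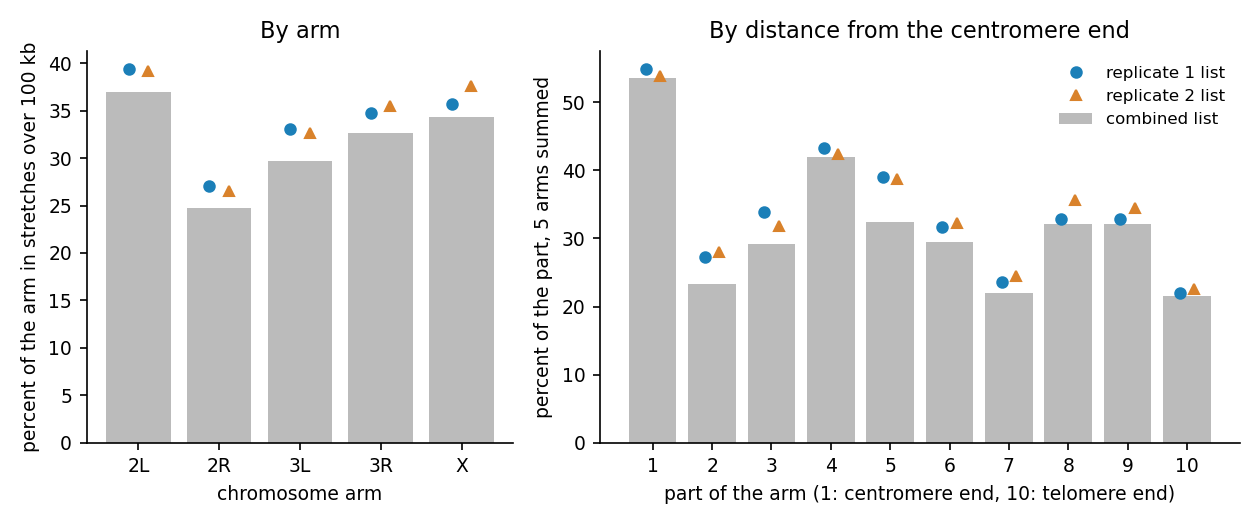
Left, percent of each chromosome arm that lies in stretches over 100 kb; right, percent of each of 10 equal parts of the arms, counted from the centromere end (1) to the telomere end (10) and summed over the 5 arms. Bars show the combined list, circles replicate 1 and triangles replicate 2; the combined share runs from 24.7% on 2R to 37.0% on 2L, and the part at the centromere end is the highest at 53.6%.

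The stretches took up more of the sequence at the centromere end than elsewhere on the arms. With the arms divided into 10 equal parts from the centromere end, the first part had 53.6% of its sequence in stretches in the combined list and 54.3% ± 0.726 in the replicate lists (SD, n = 2). The other 9 parts had between 21.5% and 42.0% in the combined list, with the fourth part at 42.0% and the last, at the telomere end, at 21.5%. Each replicate list had the first part highest, the fourth second and the last lowest.

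The arms did not share this pattern evenly. The first part had 81.1% of its sequence in stretches on 3L and 73.9% on X, but 33.5% on 2L, 41.3% on 2R and 39.1% on 3R. Beside the share of the whole arm, the first part was higher on 2R (24.7%) and 3R (32.6%) and lower on 2L (37.0%). On 2L the highest value was in the fourth part, at 72.8%, with 60.0% in the third. On 2R it was in the eighth part, at 61.7%, and on 3R in the ninth, at 49.0%. X had 0% in its last part.

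Within 1 Mb of the centromere end, 95.2% of 3L, 76.3% of X, 48.1% of 2R, 35.6% of 2L and 28.2% of 3R lay in stretches. Over the 5 arms together this was 56.7%, against 14.9% within 1 Mb of the telomere end. At the telomere end stretches took up 34.3% of the last 1 Mb of 3R, 23.5% of that of 2L, 16.8% of that of 2R and 0% of those of 3L and X. In all, 16 stretches ended within 1 Mb of a centromere end and 6 within 1 Mb of a telomere end.

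The stretch nearest to each centromere end was on 3L from 24226181 to 24529513, 14.0 kb from the end, on X from 22257743 to 22405185, 17.6 kb from it, and on 2R from 131437 to 356621, 131 kb from it. On 3R it ran from 312445 to 465499, 312 kb from the end, and on 2L from 22473845 to 22647653, 364 kb from it. None of the 5 reached the arm's end, since a region was listed 41.8 kb or less from each centromere end. At the telomere end the nearest stretch was on 2R from 20972065 to 21139987, 6.72 kb from the end. It lay 145 kb from the end on 3R (27639463 to 27760521), 604 kb on 2L (604187 to 712731), 1037 kb on 3L (1036711 to 1175131) and 2685 kb on X (2684775 to 2813505). On 3L the first region lay 129 kb from the telomere end, and this outer 129 kb is not a member, since no region bounds it on the outer side.

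**Figure D3:**
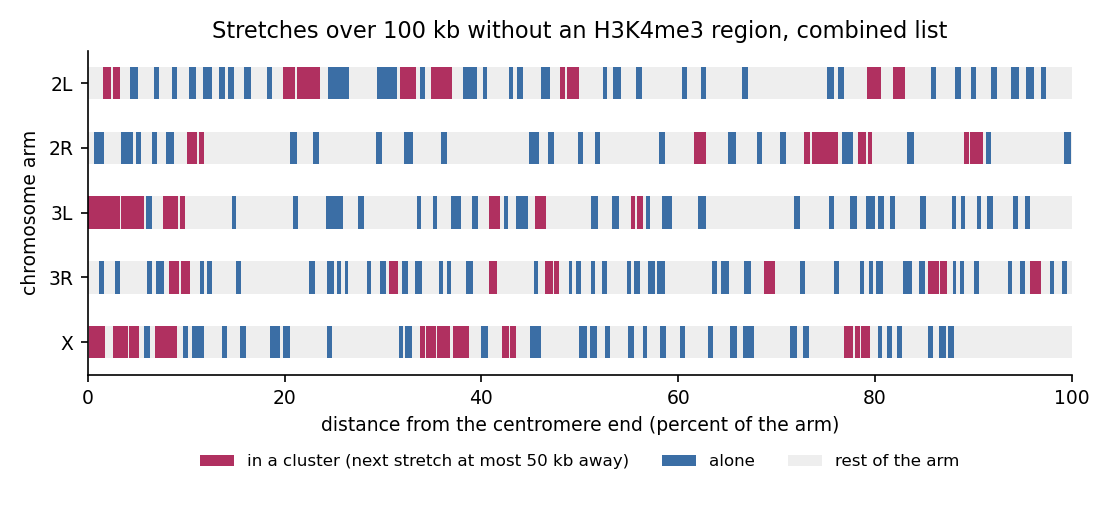
Place of the 234 stretches of the combined list along each arm, drawn to scale as a percent of the arm from the centromere end (x axis). Stretches with another at most 50 kb away are drawn in red, the others in blue and the rest of the arm in grey; the red block at the centromere end of 3L is a run of 6 stretches, and X has none in its outer 10%.

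Stretches lay close to each other in many places. Where at most 50 kb separated consecutive stretches they were taken as a cluster. There were 32 clusters, which held 77 of the 234 stretches (32.9%): 25 pairs, 4 sets of 3, and 3 with more than 3. In the replicate lists 35.8% and 36.3% of the stretches were in clusters. What share would be in clusters if the stretches were placed without grouping was not computed, so these shares alone do not show grouping. The stretch next to a member, beyond its bordering region, was itself over 100 kb in 48 of 466 cases (10.3%), against 5.43% of all stretches. These 48 cases are 24 adjacent pairs, each counted from both sides. Among next stretches of at most 100 kb the median was 11.2 kb, against 7.55 kb for all stretches of at most 100 kb, and 15.6% of them exceeded 50 kb, against 8.39%.

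The largest cluster lay at the centromere end of 3L from 23144541 to 24529513. It held 6 stretches of 132 to 303 kb, which took up 1347 kb of its 1385 kb (97.2%). The 6 regions between the stretches had scores between 1.34 and 2.26, and each replicate list also had 6 regions there. The second was on 2L from 17591373 to 18441405, with 5 stretches of 119 to 186 kb that took up 799 of its 850 kb. Here the combined list had 8 regions between the stretches, against 5 in each replicate list.

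The third cluster by summed length was on 2R from 15392171 to 16131249, with 4 stretches that together held 685 kb, and it includes the longest stretch of that arm. The fourth was on X from 14161513 to 14842765, with 3 stretches and 652 kb. The fifth was on X from 21261497 to 21845573, near the centromere end, with 2 stretches and 557 kb. In these 3 clusters the replicate lists had as many regions between the stretches as the combined list, 4, 5 and 5.

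In 24 places a single region separated 2 stretches over 100 kb, and 44 stretches (18.8%) shared a region in this way. These regions were between 1195 and 5703 bp wide, with a median of 2615 bp and a median score of 1.38. Of the 24, 22 (91.7%) overlapped a region of both replicate lists, near the 92.0% of all regions on the 5 arms. Among all 444 regions that border a stretch this share was lower, at 89.4%, against 92.3% of the other regions. In turn, 5.41% of the bordering regions overlapped neither replicate list, against 3.31% of the others. The region of 3L from 24223816 to 24226180, 2365 bp wide, stood alone between stretches that together held 504 kb. Its score was 1.34 in the combined list, 1.42 in replicate 1 and 1.30 in replicate 2. The regions of 2L from 14687614 to 14689924 and of X from 20527388 to 20530026 stood between stretches of 499.8 and 498 kb together, with scores of 0.92 and 0.84. On 3L, the region from 24020722 to 24023616 had 488 kb around it and a score of 1.99, and that of 2R from 15713334 to 15718948 had 433 kb and a score of 1.66.

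The widest of these regions were both on 2R, on either side of the longest stretch of that arm: 5703 bp from 15998242 to 16003944 and 5615 bp from 15713334 to 15718948. Replicate 1 gave widths of 5683 and 5326 bp there, and replicate 2 gave 5490 and 4689 bp. The next were on 3L from 23329402 to 23334064 at 4663 bp, on 3L from 22398482 to 22401758 at 3277 bp and on 2L from 4030472 to 4033534 at 3063 bp. One region of the 24 was in neither replicate list, that of 2L from 17777252 to 17778446, 1195 bp wide with a score of 0.23. This region was narrower than any in the replicate lists, where the narrowest was 1304 bp wide. It divided a stretch that was 371 kb long in both replicate lists into 186 and 184 kb.

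The regions that border the stretches were somewhat narrower and lower-scoring than the rest. Median width was 2691 bp for the 444 bordering regions, and 2881 bp for the other 3870 regions on the 5 arms, a difference of -190 bp. Replicate 1 gave a difference of -194 bp and replicate 2 one of -172 bp (mean -183 ± 15.6 bp, SD, n = 2). With a threshold of 200 kb the difference was -121 bp. Of the bordering regions 59 (13.3%) exceeded 5 kb, against 17.4% of the others, and 75 (16.9%) were under 2 kb, against 13.5%. The share under 2 kb was 14.0% against 10.3% in replicate 1 and 12.04% against 10.6% in replicate 2. In the replicate lists 11.5% ± 0.760 of bordering regions exceeded 5 kb, against 16.3% ± 0.700 of the others (SD, n = 2). The overlap of the 2 sets was nearly complete, with the middle 50% of widths between 2278 and 3836 bp for bordering regions and between 2400 and 4292 bp for the others.

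The median score was 1.72 for bordering regions and 2.08 for the others in the combined list, 1.94 and 2.28 in replicate 1, and 1.80 and 2.09 in replicate 2. The difference was -0.36 in the combined list and -0.32 ± 0.028 over the replicate lists (SD, n = 2). It was -0.23 with only regions found in both replicate lists and -0.079 without the lowest-scoring 25% of regions. In the lists as deposited it was below 0 on each of the 5 arms in each of the 3 lists, from -0.60 on 2L to -0.11 on 2R in the combined list and nearest to 0 on X in replicate 2, at -0.02. The difference in width was not below 0 everywhere: on 3L the combined list gave 4 bp, replicate 1 gave -51.5 bp and replicate 2 gave 55 bp. On the other 4 arms it was between -250 and -123 bp in the combined list.

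Wide regions also stood at the edge of stretches. Of the bordering regions 9 exceeded 10 kb (2.03%), against 103 (2.66%) of the others. The widest, named after its value was seen, was on 2L from 4441476 to 4466690, 25.2 kb wide with a score of 2.65. Scores of the bordering regions did not rise with the length of the stretch: the median was 1.68 for the 78 shortest stretches, 1.72 for the middle 78 and 1.55 for the 78 longest, which ran from 167 to 478 kb. The 4 bordering regions named as depletion, also picked out after the data were seen, start on 2L at 7702568 and 15248404, on 2R at 1854278 and on 3R at 6982382. Their scores lay between -0.18 and -0.0022, and each was between 1629 and 1659 bp wide.

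**Figure D4:**
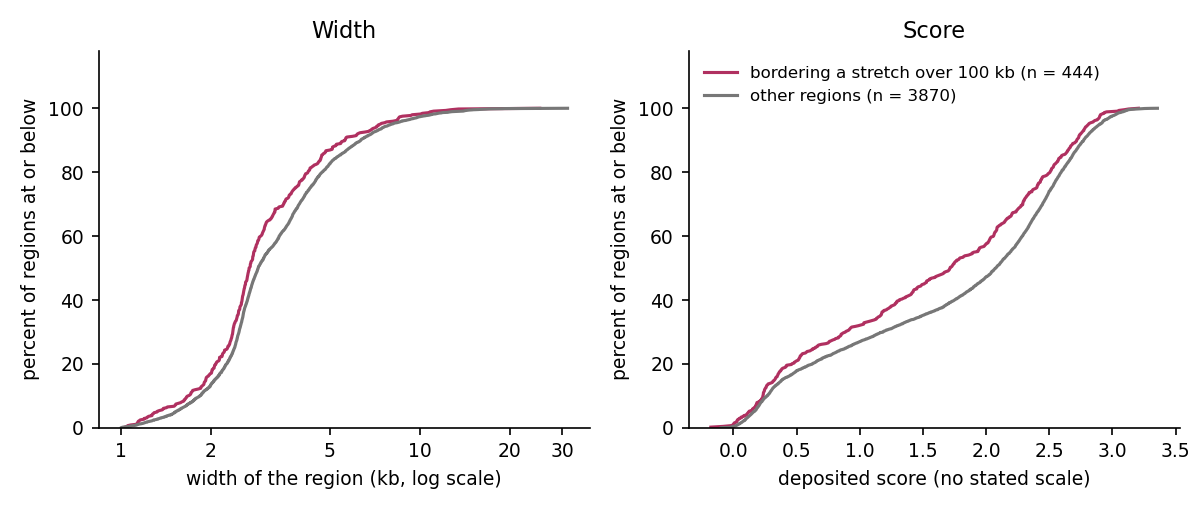
Cumulative percent of regions (y axes) by width (left, kb, log scale) and by deposited score (right) for the 444 regions that border a stretch over 100 kb and the 3870 other regions of the 5 arms in the combined list. The line of the bordering regions lies to the left of that of the others over most of both ranges, with medians of 2691 against 2881 bp and of 1.72 against 2.08.

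Each replicate list was compared with the 234 stretches to see whether it leaves them empty. No region of either replicate list lay wholly inside a stretch, and none had its middle in one, so both lists left all 234 empty by that measure. By the same measure 99.9% of stretches of any length in the combined list were empty. Where a single base counted as entering, replicate 1 left 160 stretches empty (68.4%, against 71.4% of stretches of any length) and replicate 2 left 197 empty (84.2%, against 81.0%). Both lists left 129 (55.1%) without a base of a region, against 55.2% of stretches of any length. These shares were near those of all stretches, and nothing is read from them about the long ones.

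The bases that entered were those of bordering regions whose edge lay further in. The 74 stretches entered by replicate 1 had a median of 15 bp covered, and the 37 entered by replicate 2 a median of 8 bp. In all, 2080 bp of the 37.8 Mb were covered in replicate 1 (0.0055%) and 773 bp in replicate 2 (0.0020%). More than 100 bp was covered in 3 stretches: 392 bp by replicate 1 on 2L from 11842623 to 11969151, 223 bp by replicate 2 on 3R from 23116455 to 23383129, and 164 bp by replicate 1 on 3R from 8545637 to 8682221. The next were 86 bp by replicate 2 on 2R from 16217007 to 16436101 and 82 bp by replicate 1 on 2L from 13060939 to 13163021.

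Most ends moved outwards, away from the stretch, when the replicate lists replaced the combined list. Of the 468 ends, 377 moved outwards in replicate 1, 85 inwards and 6 not at all; in replicate 2, 423 moved outwards, 40 inwards and 5 not at all. The median size of the shift was 26 bp in replicate 1 and 26.5 bp in replicate 2. For replicate 1, 83.8% of ends lay within 100 bp of those of the combined list and 92.5% within 500 bp, and in replicate 2 these shares were 82.7% and 90.6%. The stretch of the replicate list that overlapped each member most exceeded 100 kb for all 234 in each replicate list. This was nearly fixed in advance, since no replicate region lay wholly inside a member, and nothing is read from it. The length of that replicate stretch was within 1% of the member's length for 205 stretches in replicate 1 and for 196 in replicate 2. For 9 members in replicate 1 and 12 in replicate 2 the replicate stretch was more than 1.5 times as long, at most 2.02 and 2.42 times. These shares of ends and of lengths were not computed over stretches of any length, so nothing is read from them about the long ones.

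**Figure D5:**
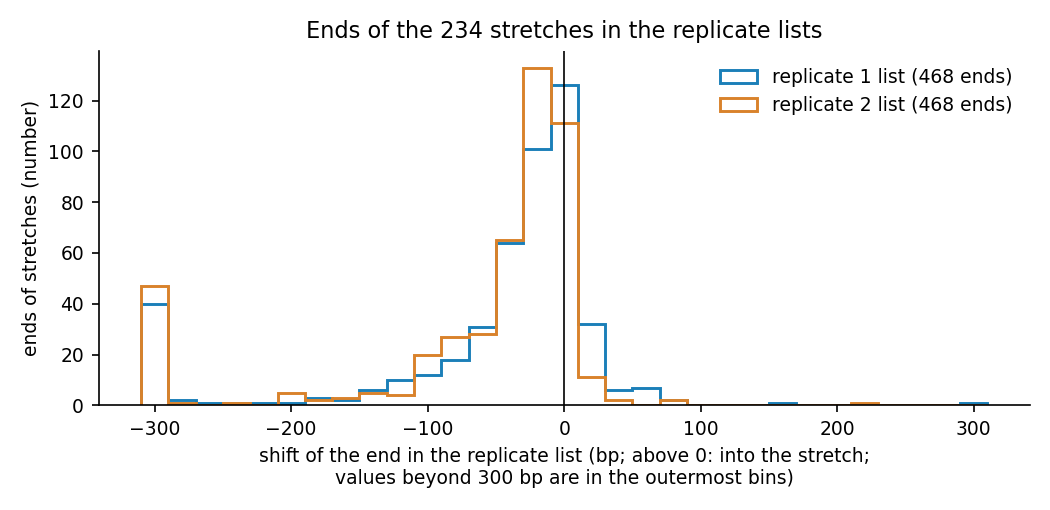
Shift of the 468 ends of the 234 stretches in each replicate list relative to the combined list (x axis, bp, in bins of 20 bp; positive values lie inside the stretch, and shifts beyond 300 bp are collected in the outermost bins). Most ends lie at or just outside those of the combined list, with a median size of 26 bp in replicate 1 and 26.5 bp in replicate 2.

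Longer replicate stretches arose where the combined list had a region that the replicate list had not. Of the 246 stretches of replicate 1, 40 held 48 regions of the combined list, and of the 245 of replicate 2, 49 held 59. These regions had a median width of 1327 and 1321 bp and a median score of 0.23 and 0.20. The narrowest region listed was 1001 bp wide in the combined list, but 1304 bp in each replicate list. Combined regions under 1304 bp thus had no replicate region as narrow, and the part this plays was not tested. 44 of the 48 and 55 of the 59 were among the lowest-scoring 25% of the combined list on the 5 arms.

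Both replicate lists together left 239 stretches over 100 kb without a region, with a median of 147 kb and 39.5 Mb in all, or 33.2% of the 5 arms. All 234 members overlapped one of these 239, which was also nearly fixed in advance. The combined list placed 32 regions in 28 of them, and 6 of the 28 were thereby cut into pieces of at most 100 kb. The longest of the 28 was on 3L from 13508212 to 13911814, 404 kb long in both replicate lists together and thus the fourth longest stretch of each. The combined list had 2 regions there, one from 13567738 to 13568960 with a score of 1.54, which left pieces of 290 kb and 59.5 kb as the 2 longest. The stretch of 3R from 3367819 to 3619295, 251 kb long, held a combined region from 3533324 to 3535332 with a score of 1.94, the highest score among the 32. These 2 stretches were picked out after their values were seen.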

How the data were processed

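The lists of H3K4me3 regions were deposited by the authors, one for each ChIP library and one for the replicate set, on FlyBase release 5 per the file headers. Bowtie 0.12.7 is named in the submitters' processing notes. How regions were called, with which threshold and input, and how the replicates were combined remains not given in the sources used here. Scores are the deposited values, with no stated scale, and serve only as a description of regions.

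Stretches between consecutive regions were computed with Python 3.11.15, numpy 2.4.6 and pandas 2.3.3, and figures were drawn with matplotlib 3.10.9. The code was tested on simulated lists. The centromere end is the high end of 2L, 3L and X and the low end of 2R and 3R. An overlap is at least 1 bp. Stretches and regions were named by rules of length, place, clustering and overlap; others are said to have been picked after their values were seen. The members and the rules were chosen with earlier results of these data known. No test was run, since the same lists chose the members. Other thresholds, region filters and each replicate list alone were tried. Sequencing depth is unknown, so no interval can be set from reads.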

Additional observations from a re-analysis of the deposited data

How the results depend on the processing

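The number of stretches, 234, was between 234 and 300 under every region filter run, and 576 with a threshold of 50 kb and 47 with 200 kb. Their share of the arms, 31.8%, was 51.7% at 50 kb, 10.3% at 200 kb, 35.4% with only regions in both replicate lists, 44.4% without the lowest-scoring 25% of regions and 32.0% without regions named as depletion, a setting added after seeing the data. The median length, 142 kb, was 85.4, 238, 149, 154 and 143 kb in the same order, and 141.7 kb with arm ends counted. The 129 stretches without a base of either replicate list were 304 at 50 kb, 28 at 200 kb, 61 without the lowest-scoring 25%, and 234 when only region middles counted. The share next to another stretch across 1 region, 18.8%, was 40.3% at 50 kb, 6.38% at 200 kb and 25.3% without the lowest-scoring 25%. The share in clusters, 32.9%, was 71.0% at 50 kb, 14.9% at 200 kb, 37.9% with regions in both lists, 45.3% without the lowest-scoring 25%, 33.6% without depletion, and 49.6% and 23.9% with cluster distances of 100 and 20 kb. The width difference of bordering and other regions, -190 bp, was -256 bp at 50 kb, -121 at 200 kb, -226 with regions in both lists, -285 without the lowest-scoring 25% and -230 with neighbours within 500 bp joined. The score difference, -0.36, was -0.41, -0.33, -0.23 and -0.079 in the first 4 of these settings. The share of stretch length in the 25% of the arms at the centromere end, 29.8%, was 27.0%, 35.8%, 29.2% and 28.0% there, and that at the telomere end, 24.0%, was 24.9%, 16.4%, 23.1% and 23.5%. The cause of these moves was not tested.

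With either ChIP library left out, the deposited list of the other was used, so these values are those of the replicate lists. There were 245 to 246 stretches, holding 34.1% to 34.4% of the arms, with a median of 148.4 to 148.7 kb. The share across 1 region was 19.2% to 20.7% and that in clusters 35.8% to 36.3%. The differences were -194 to -172 bp in width and -0.34 to -0.30 in score. The shares at the centromere end were 29.0% to 29.7% and at the telomere end 22.8% to 23.3%.

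No paired analysis was possible because the results come from no test and only ChIP lists were used. Unknown depth limits every stretch, since weak regions under the threshold of a list are not seen.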

Other observations

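The parts of the arms between the stretches were themselves long in places. A median of 11 regions and 209 kb lay between consecutive stretches of an arm, and 16 of the 229 intervals exceeded 1 Mb. The longest was on 3L from 6935670 to 9132042, 2196 kb with 104 regions, followed by 3R from 4342652 to 6261570, 1919 kb with 97 regions, and 2L from 5720128 to 7577050, 1857 kb with 84 regions. These intervals were picked out after their values were seen.

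The same rule was applied to the sequences outside the 5 arms. Chromosome 4, the small chromosome known for its interspersed heterochromatin, had 0 stretches over 100 kb among its 56 regions, and its longest was 88.8 kb. Of the heterochromatic sequences, 2RHet had 8 such stretches, with 88.8% of its 3.29 Mb in them and the longest at 857 kb. 3LHet had 6, with 68.3% of its 2.56 Mb and the longest at 684 kb. 3RHet had 1 of 537 kb (21.3% of its sequence) and 2LHet 1 of 131 kb (35.4%). XHet and YHet had 0, with their longest stretches between regions at 10.6 and 5.53 kb. Bases beyond the outermost regions of a sequence were not counted. 3RHet had 7 regions in 2.52 Mb, XHet 3 in 0.204 Mb and YHet 4 in 0.347 Mb. The counts and shares therefore do not show how much of a sequence lacks regions. The sequence U, of unplaced parts, had 17 stretches over 100 kb, with 79.8% of its 10.0 Mb in them and the longest at 2044 kb. Whether U and the heterochromatic sequences are continuous was not checked, so a stretch on them may span joined pieces or filler and need not be 1 piece of chromosome. Uextra had no region. The part that mapping of reads plays on these sequences was not tested.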
